A study of Bos taurus with 3 samples.

Results

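Genes of the epidermal growth factor (EGF) signalling system were followed through single epithelial cells of the cow rumen. They were taken by name as the receptor genes EGFR, ERBB2 and ERBB3, the ligand genes AREG, EREG, HBEGF and TGFA, the feedback inhibitor ERRFI1 and the secreted protein gene FGFBP1, which makes 9 of the 19533 genes named in the count table. All cells came from the rumen of 3 adult Holstein dairy cows that were not set apart by any treatment, diet or genotype in the sample labels, with 1 droplet library per cow (10x Chromium 3' kit, version 3). The muscle was removed, the tissue was dissociated with EDTA, trypsin and a mix of collagenases, dispase and hyaluronidase, and the authors kept the epithelial cells for the deposited table. A cow is numbered by the suffix of its cell barcodes.

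Cells were divided by the transcripts of 4 other genes, none of them a member: TM4SF1 (a membrane protein related to the tetraspanins), DLK2 (a homologue of the Notch pathway protein DLK1), GJA1 (the gap junction protein connexin 43) and KRT15 (a keratin of basal epithelial cells). A unique molecular identifier (UMI) marks 1 captured transcript. The TM4SF1 state was made of cells with at least 1 TM4SF1 UMI and none of DLK2 or GJA1, and the DLK2 state of cells with at least 1 DLK2 UMI and none of TM4SF1 or GJA1. The GJA1 state was made of cells with at least 1 GJA1 UMI and none of DLK2, whether or not TM4SF1 was found. Cells with none of the 3 genes were split into KRT15-high and KRT15-low at the median KRT15 level of their cow, and cells with DLK2 beside TM4SF1 or GJA1 were called mixed. The states held 3364 TM4SF1 cells, 1661 GJA1 cells, 4970 DLK2 cells, 4011 KRT15-high cells, 3858 KRT15-low cells and 2864 mixed cells, and every cow gave cells to every state. The shares were unequal between cows. In cows 1, 2 and 3 the TM4SF1 state held 9.50%, 26.5% and 10.8% of cells, the KRT15-high state 16.4%, 7.89% and 28.9%, and the mixed cells 12.9%, 28.1% and 3.47%. The DLK2 state was the most even, at 29.3%, 23.3% and 22.7%. The states are sets of cells cut by 4 transcripts and not cell types.

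As background, the EGF receptor family is a group of receptor tyrosine kinases that act in pairs. EGFR binds amphiregulin (AREG), epiregulin (EREG), heparin-binding EGF-like growth factor (HBEGF) and transforming growth factor alpha (TGFA), ERBB2 has no known ligand and serves as a partner, and ERBB3 binds neuregulins and has a weak kinase. The ligands are made as membrane proteins and are released by proteases such as ADAM17, so a cell that makes a ligand can act on itself or on its neighbours. The signal runs through Ras and ERK and is held in check by inhibitors such as ERRFI1, which binds the receptor kinase. FGFBP1 releases fibroblast growth factors from the extracellular matrix. In stratified epithelia the system is known for its part in keratinocyte growth, migration and wound repair.

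The libraries held 3369, 7401 and 9958 cells with 38912809, 94856658 and 104189434 UMIs for cows 1, 2 and 3. KRT5 and KRT14, keratins of the basal layer, had UMIs in 99.9% and 99.5% of cells. Of the markers of other cell types, the 5 fibroblast genes had 12 UMIs in all, the 3 endothelial genes 570 (563 of them VWF), the 4 smooth muscle genes 222 and the 5 immune genes 1851, with 38 for the leukocyte marker PTPRC and 0 for the B cell marker MS4A1. Over the 18 sums of a cow and a state, the summed level of these lists lay at 0 to 0.00226, 0.00741 to 0.0506, 0 to 0.0287 and 0.0409 to 0.104 UMIs per 10000, and their part in the results was not tested. Cow 3 stood apart in the immediate-early genes, a list of 20 fast-response and stress genes such as FOS, JUN and EGR1, with shares of 0.902%, 1.29% and 0.337% in cows 1, 2 and 3. Between the cows, 35 cell barcodes were shared.

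AREG, HBEGF and ERRFI1 were the members that differed most between animals. AREG stood at 0.505 UMIs per 10000 in cow 1, 0.222 in cow 2 and 0.0462 in cow 3. HBEGF was at 0.145, 0.207 and 0.0240 in the same order, and the feedback inhibitor ERRFI1 at 0.429, 0.968 and 0.0794. Cow 3 was the lowest for all of them, and the highest cow exceeded it 10.9-fold for AREG, 8.61-fold for HBEGF and 12.2-fold for ERRFI1. EREG was rare, with 27, 83 and 11 UMIs, and TGFA had 32 UMIs in 32 of the 20728 cells, too few to pass the filter for the test. The receptors varied less. EGFR was at 0.266, 0.147 and 0.210 UMIs per 10000, ERBB2 at 0.785, 0.371 and 0.342, and ERBB3 at 0.0887, 0.0570 and 0.0654. FGFBP1 had the smallest relative spread, with 1.62, 2.28 and 1.86. Cow 3 was thus low in AREG, EREG, HBEGF and ERRFI1 but did not stand below the other cows in EGFR, ERBB3 or FGFBP1. In ERBB2 it was just below cow 2. It also had the lowest immediate-early share. Cow 2, with the highest share, was above cow 1 in EREG, HBEGF and ERRFI1 but below it in AREG. The part of that share in these levels was not tested.

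A member was called between states when edgeR's quasi-likelihood test on UMI sums per cow and state, with the cow as a block, gave an adjusted p under 0.05 and an absolute log2 fold change above 0.25. The adjustment ran over 10880 genes, the 4 state genes included. The shares of all genes tested given below leave out the state genes and are over 10876. Of the 9 members, 8 passed the filter on low counts and TGFA did not. EREG was tested but had 0 UMIs in cow 3 of the GJA1 state and in cow 2 of the KRT15-high state, and no fold change is given for it. It had 38 UMIs in the TM4SF1 state, 16 in the GJA1 state, 12 in the DLK2 state, 6 in the KRT15-high state and 13 in the KRT15-low state, and none of its comparisons was called, with an adjusted p of 0.0554 between the TM4SF1 and DLK2 states. There it was called higher in the TM4SF1 state without cow 1 (adjusted p = 0.0146) and without the filter on low counts (adjusted p = 0.0310).

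**Figure D1:**
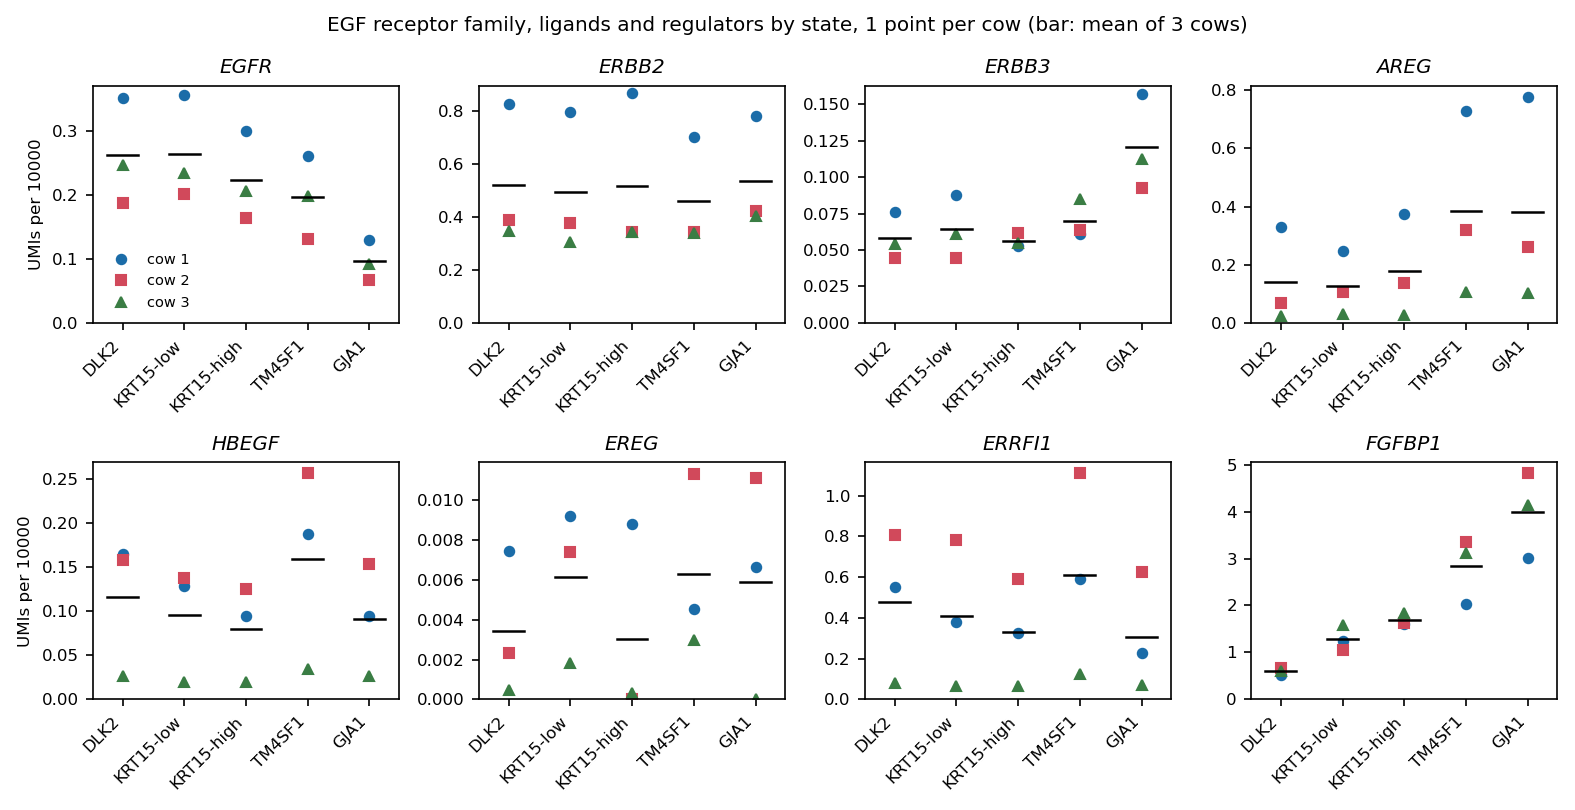
UMIs per 10000 of 8 members (vertical axes, linear from 0) in 5 states (horizontal axes), with 1 point for each of 3 cows and a bar at their mean. FGFBP1 and ERBB3 are highest in the GJA1 state in all 3 cows, EGFR is lowest there, and AREG is high in the TM4SF1 and GJA1 states.

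The first question was which side of the TM4SF1 and DLK2 divide carries the ligand members. In the TM4SF1 state, 5 members were higher than in the DLK2 state (FGFBP1, AREG, HBEGF, ERBB3 and ERRFI1) and 1 was lower (EGFR), against a background of 26.9% of all genes tested that were called (15% higher and 11.9% lower). AREG, the ligand member with the most UMIs, was at 0.729, 0.318 and 0.105 UMIs per 10000 in cows 1, 2 and 3 of the TM4SF1 state. In the DLK2 state it was at 0.329, 0.0699 and 0.0238. The highest DLK2 value, of cow 1, lay above the TM4SF1 values of cows 2 and 3, but within each cow the TM4SF1 state was higher, by 2.22-fold, 4.55-fold and 4.40-fold. The log2 fold change was 1.79 ± 0.16 (SE, higher in 3 of 3 cows, adjusted p = 1.30e-08).

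HBEGF, the other ligand member with enough UMIs, was at 0.187, 0.256 and 0.0344 UMIs per 10000 in the TM4SF1 state. In the DLK2 state it was at 0.164, 0.158 and 0.0266. The groups overlapped and the gap was small in each cow, with a log2 fold change of 0.59 ± 0.12 (SE, higher in 3 of 3 cows, adjusted p = 0.000468). Without cow 2 it was 0.32 and was not called (adjusted p = 0.247).

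EGFR, the receptor of these ligands, ran the other way. It was at 0.262, 0.132 and 0.198 UMIs per 10000 in the TM4SF1 state and at 0.352, 0.188 and 0.247 in the DLK2 state. It was lower in 3 of 3 cows, although the groups overlapped, with a log2 fold change of -0.35 ± 0.08 (SE, adjusted p = 0.00187). With each cell thinned to 5000 UMIs the value was -0.13 (adjusted p = 0.610), and without cells that had MKI67 or TOP2A UMIs, both markers of division, it was -0.23 (adjusted p = 0.0669). ERBB2 had a log2 fold change of -0.07 with a 95% interval from -0.23 to 0.09. ERBB3 was higher in 2 of 3 cows (0.0610 against 0.0757, 0.0634 against 0.0445 and 0.0852 against 0.0541 UMIs per 10000), with a log2 fold change of 0.48 ± 0.15 (SE, adjusted p = 0.0201), and only 7 of 14 alternative settings kept the call.

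ERRFI1, which is induced by EGFR signalling as part of a feedback loop, was at 0.589, 1.11 and 0.124 UMIs per 10000 in the TM4SF1 state and at 0.551, 0.807 and 0.0793 in the DLK2 state. The cows differed more than the states did. The log2 fold change was 0.46 ± 0.10 (SE, higher in 3 of 3 cows, adjusted p = 0.00142), and without cow 2 it was 0.37 (adjusted p = 0.0663).

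FGFBP1 showed the clearest separation of all members. It was at 2.03, 3.35 and 3.13 UMIs per 10000 in the TM4SF1 state and at 0.513, 0.671 and 0.614 in the DLK2 state. The groups did not overlap, and the log2 fold change was 2.31 ± 0.12 (SE, higher in 3 of 3 cows, adjusted p = 3.35e-12). It was the only one of the 6 calls that held without the cow as a block (adjusted p = 0.00182), while AREG was then at an adjusted p of 0.706. Between the same states, 8 of the 20 immediate-early genes were higher and 0 were lower, and their share of UMIs was 1.02%, 1.37% and 0.447% in the TM4SF1 state against 1.17%, 1.24% and 0.344% in the DLK2 state. Cells with MKI67 or TOP2A UMIs made up 23.4%, 10.2% and 33.3% of the TM4SF1 state and 7.09%, 2.61% and 14.1% of the DLK2 state, and without them AREG was at 1.74 and FGFBP1 at 2.43, both called. The immune gene CD68 was higher in the TM4SF1 state at 0.57 (adjusted p = 0.0304), 1 of 3 immune genes tested, and the mitochondrial share was higher in 3 of 3 cows, at 19.0%, 11.8% and 12.9% against 14.8%, 10.0% and 12.0%. Their part was not tested.

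The same question was asked of the GJA1 state. Against the DLK2 state, 3 members were higher (FGFBP1, AREG and ERBB3) and 2 were lower (EGFR and ERRFI1), where 50.3% of all genes tested were called (25.3% higher and 25% lower). With that share of genes called, the 5 calls among 8 tested members are close to the background, and the sizes are given for each.

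AREG was at 0.777, 0.261 and 0.101 UMIs per 10000 in the GJA1 state, against 0.329, 0.0699 and 0.0238 in the DLK2 state given above. It was higher in 3 of 3 cows, with overlap between the groups, and the log2 fold change was 1.75 ± 0.17 (SE, adjusted p = 3.06e-09). HBEGF did not follow it, with 0.0939, 0.153 and 0.0264 UMIs per 10000 in the GJA1 state and a log2 fold change of -0.19, whose 95% interval ran from -0.47 to 0.09. In 2 settings it was called lower: at -0.78 when GJA1 cells with TM4SF1 UMIs were left out (adjusted p = 0.00534) and at -0.498 when at least 2 UMIs of the state gene were required (adjusted p = 0.0218). Without cow 1 it was 0.06. AREG was at 1.15 without the GJA1 cells that had TM4SF1 UMIs and kept its call (adjusted p = 7.92e-05).

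EGFR had 0.130, 0.0667 and 0.0929 UMIs per 10000 in the GJA1 state. All of them lay below the lowest DLK2 value of 0.188, and the ratio to the DLK2 state was nearly the same in each cow, at 0.370, 0.355 and 0.376. The log2 fold change was -1.29 ± 0.10 (SE, lower in 3 of 3 cows, adjusted p = 4.26e-11). ERBB3 went the other way. With 0.157, 0.0923 and 0.112 UMIs per 10000 in the GJA1 state and 0.0757, 0.0445 and 0.0541 in the DLK2 state, the groups did not overlap and the ratios were 2.07, 2.08 and 2.08. Its log2 fold change was 1.22 ± 0.15 (SE, higher in 3 of 3 cows, adjusted p = 2.37e-07). ERBB2 was at 0.783, 0.424 and 0.405 UMIs per 10000 against 0.829, 0.389 and 0.348, a log2 fold change of 0.22 that stayed under the fold limit (adjusted p = 0.0176, higher in 2 of 3 cows). It passed that limit in 4 of 14 settings, without cow 1 (0.29, adjusted p = 0.0178), without cells with MKI67 or TOP2A UMIs (0.28), in cells above the median immediate-early share (0.32) and with at least 2 UMIs of the state gene (0.39), and with cells thinned to 5000 UMIs it was 0.09 (adjusted p = 0.582). EGFR thus gave 12.2%, 11.5% and 15.2% of the receptor UMIs in the GJA1 state, against 28.0%, 30.2% and 38.0% in the DLK2 state.

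ERRFI1 was at 0.229, 0.623 and 0.0711 UMIs per 10000 in the GJA1 state, lower than the DLK2 state in 3 of 3 cows with overlap, and the log2 fold change was -0.51 ± 0.11 (SE, adjusted p = 0.000484). Without cow 1 it was -0.21 (adjusted p = 0.118), and without GJA1 cells that had TM4SF1 UMIs it was -1.17 (adjusted p = 5.16e-07). FGFBP1 reached its highest level here, with 3.02, 4.83 and 4.14 UMIs per 10000. All of these lay above the highest DLK2 value of 0.671, and the log2 fold change was 2.87 ± 0.13 (SE, higher in 3 of 3 cows, adjusted p = 2.50e-15). FGFBP1, ERBB3 and EGFR kept their calls in all 14 alternative settings, the one without the cow block included, while AREG lost it there (adjusted p = 0.329). The immediate-early share was lower in the GJA1 state, at 0.540%, 0.851% and 0.266%, with 4 of the 20 genes higher and 12 lower, and the mitochondrial share of UMIs was higher, at 23.2%, 14.6% and 14.9% against 14.8%, 10.0% and 12.0%. Of the marker genes, MKI67 at 1.197 (adjusted p = 0.000401), TOP2A at 1.11 (adjusted p = 0.000773) and VWF at 0.75 (adjusted p = 0.0145) were higher in the GJA1 state on the log2 scale, and the immune gene CD74 at -0.998 (adjusted p = 0.00168) was lower. Cells with MKI67 or TOP2A UMIs made up 21.1%, 16.4% and 22.6% of the GJA1 state, and without such cells in either state FGFBP1 was at 3.02, AREG at 1.78, ERBB3 at 1.35, EGFR at -1.27 and ERRFI1 at -0.44, all called. The part of VWF and CD74 was not tested.

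The next question was how the GJA1 state, which includes cells with TM4SF1, differed from the TM4SF1 state. In the GJA1 state, 3 members were higher than in the TM4SF1 state (ERBB3, FGFBP1 and ERBB2) and 3 were lower (EGFR, ERRFI1 and HBEGF), where 29.3% of all genes tested were called (15.2% higher and 14.1% lower). The levels are those given above. AREG was not called, with 0.777, 0.261 and 0.101 against 0.729, 0.318 and 0.105 UMIs per 10000, a log2 fold change of -0.04 and a 95% interval from -0.35 to 0.27. EGFR had a log2 fold change of -0.94 ± 0.10 (SE, lower in 3 of 3 cows, adjusted p = 1.32e-07), and the highest GJA1 value of 0.130 lay just below the lowest TM4SF1 value of 0.132. ERBB3 was higher by 0.74 ± 0.15 (SE, 3 of 3 cows, adjusted p = 0.000456) without overlap between the groups. Of 3 immune genes tested 2 were lower here, CD74 at -0.98 (adjusted p = 0.00464) and CD68 at -0.89 (adjusted p = 0.00573), and the mitochondrial share of the GJA1 state was above that of the TM4SF1 state in 3 of 3 cows. Their part was not tested.

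HBEGF and ERRFI1 were both lower. HBEGF had a log2 fold change of -0.78 ± 0.13 (SE, lower in 3 of 3 cows, adjusted p = 6.21e-05) and ERRFI1 one of -0.97 ± 0.11 (SE, lower in 3 of 3 cows, adjusted p = 3.65e-07). Of the immediate-early genes, 16 of 20 were lower in the GJA1 state and 0 were higher. FGFBP1 was higher by 0.56 ± 0.12 (SE, 3 of 3 cows, adjusted p = 0.000542) and ERBB2 by 0.30 ± 0.08 (SE, 3 of 3 cows, adjusted p = 0.00587). When GJA1 cells with TM4SF1 UMIs were left out, FGFBP1 was at 0.20 (adjusted p = 0.224), ERBB2 at 0.25 (adjusted p = 0.0611) and AREG at -0.64 (adjusted p = 0.0199, called lower), while HBEGF at -1.39 and ERRFI1 at -1.64 kept their calls. With cells thinned to 5000 UMIs ERBB2 was at 0.05 and was not called (adjusted p = 0.822). Without the cow block only ERBB3 kept its call (adjusted p = 0.0403).

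**Figure D2:**
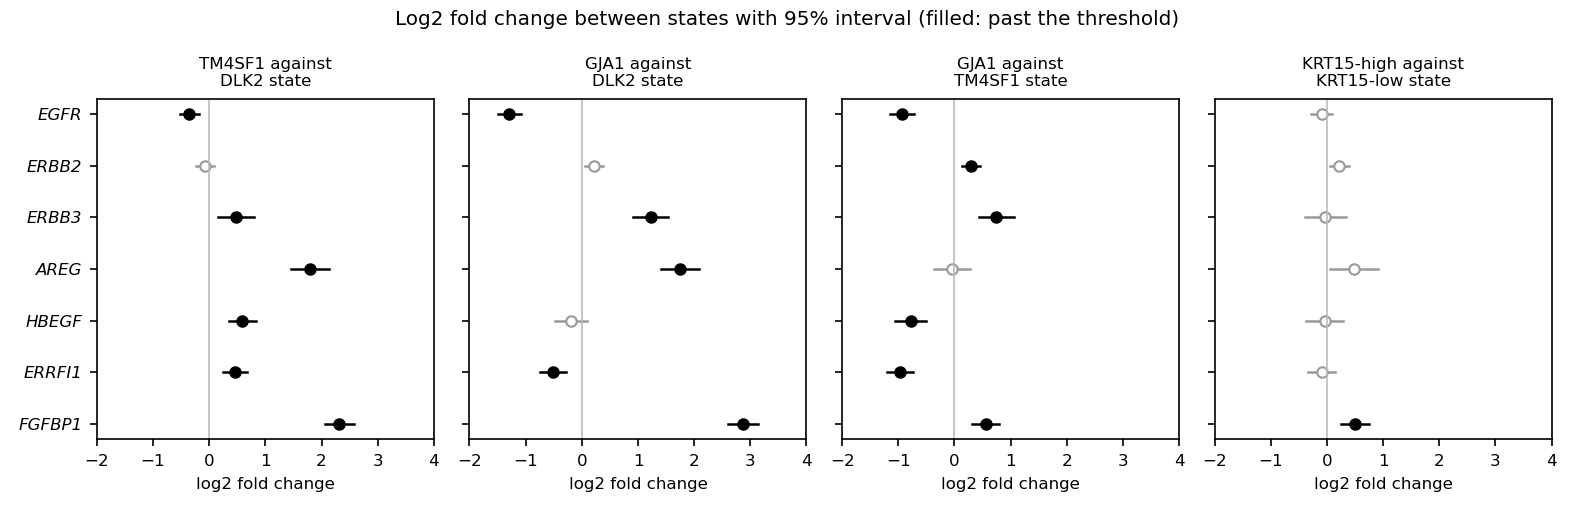
Log2 fold change of 7 members between states (horizontal axes) with 95% intervals from the edgeR fit, in 4 panels for the 4 comparisons. Filled points passed the threshold: FGFBP1 stands at 2.31 and 2.87 and EGFR at -0.35 and -1.29 against the DLK2 state, and only FGFBP1 is filled in the KRT15 panel.

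The last comparison was between cells that differed in KRT15 alone among the state genes. Among cells without TM4SF1, DLK2 and GJA1, FGFBP1 was the only member called between KRT15-high and KRT15-low cells, where 9.26% of all genes tested were called (4.71% higher and 4.55% lower). It was at 1.60, 1.62 and 1.83 UMIs per 10000 in the KRT15-high state and at 1.24, 1.06 and 1.59 in the KRT15-low state, so the groups did not overlap, by a narrow margin. Its log2 fold change was 0.50 ± 0.12 (SE, higher in 3 of 3 cows, adjusted p = 0.00882), and without cow 1 it was 0.47 (adjusted p = 0.0888). Between the same cells MKI67 at -1.22 (adjusted p = 0.00282) and TOP2A at -1.23 (adjusted p = 0.00320) were lower in the KRT15-high state, where cells with UMIs of either gene made up 14.3%, 6.85% and 16.3% against 17.9%, 7.82% and 29.8%. Without such cells FGFBP1 was at 0.64 and was called (adjusted p = 0.000289). Of the 20 immediate-early genes 6 were lower and 0 were higher, and in the cells at or below the median immediate-early share of their cow FGFBP1 was at 0.22 and was not called (adjusted p = 0.311), against 0.87 above it (adjusted p = 0.0100). AREG was at 0.374, 0.136 and 0.0278 against 0.246, 0.107 and 0.0296, a log2 fold change of 0.48 with a wide 95% interval from 0.06 to 0.91 (adjusted p = 0.161). It was called without the filter on low counts (0.49) and in cells above the median immediate-early share (0.84, adjusted p = 0.0351), and ERBB2 was called only with cells thinned to 5000 UMIs (0.32, adjusted p = 0.0150). For EGFR the log2 fold change was -0.10 with an interval from -0.28 to 0.08. Over the cells of all states FGFBP1 had no steady order along KRT15. In the 5182 cells lowest in KRT15 it was at 1.85, 2.58 and 2.00 UMIs per 10000 in cows 1, 2 and 3. In the 5184 cells highest in KRT15 it was at 1.67, 2.47 and 1.92, lower in 3 of 3 cows. The means of these ends were 2.14 and 2.02, with 1.69 and 1.83 in the groups between them. These levels were not tested.

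Over the 5 states FGFBP1 had the same order in 3 of 3 cows at every step, from GJA1 through TM4SF1, KRT15-high and KRT15-low to DLK2, and the means of the ends differed 6.67-fold. EGFR was lowest in the GJA1 state in 3 of 3 cows and was higher in order through TM4SF1 and KRT15-high to DLK2 and KRT15-low, but the last pair was ordered that way in only 2 of 3 cows, with means of 0.262 ± 0.083 and 0.265 ± 0.081 UMIs per 10000 (SD, n = 3). For AREG the TM4SF1 state exceeded the GJA1 state in 2 of 3 cows, and both exceeded the other states in 3 of 3 cows. The ERBB2 means lay between 0.462 and 0.537, and no neighbouring pair was ordered alike in 3 of 3 cows. The states also differed in depth. The median cell held 15760, 13161, 9966, 9032 and 8720 UMIs in the GJA1, TM4SF1, KRT15-high, DLK2 and KRT15-low states. This order is the reverse of that of the EGFR means and matches that of FGFBP1 apart from the last pair. The part of depth in these orders was not tested.

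The levels were also followed along the UMIs of the state genes. A cell's class was set by its UMIs of the state gene after the cell had been thinned to 5000 UMIs, and the levels were taken from the full counts of the same cells, so that depth differed between the classes. The median cell held 10476, 12402 and 14087 UMIs in the classes with 0, 1 and 2 or more UMIs of TM4SF1, 11640, 9580 and 8535 in those of DLK2 and 10716, 14453 and 17392 in those of GJA1. FGFBP1 went down along DLK2, from a mean of 2.28 UMIs per 10000 in cells with 0 DLK2 UMIs to 0.856 with 1 and 0.421 with 2 or more, in the same order in each cow. Along TM4SF1, AREG went from 0.416 to 0.812 and 1.09 in cow 1, from 0.130 to 0.235 and 0.397 in cow 2 and from 0.0368 to 0.116 and 0.210 in cow 3. Along GJA1, EGFR went down from 0.285 to 0.177 and 0.103 in cow 1 and from 0.152 to 0.0872 and 0.0711 in cow 2, while in cow 3 it went from 0.215 to 0.0857 and 0.0872. Along TM4SF1, EGFR had no common order, with 0.256, 0.193 and 0.319 in cow 1 and 0.159, 0.143 and 0.121 in cow 2. With the levels taken from the thinned counts as well, an alternative chosen after the data were seen, the mean of FGFBP1 along DLK2 was 1.95, 0.711 and 0.322, and the orders of FGFBP1 along DLK2 and of AREG along TM4SF1 were alike in each cow. These classes were not tested.

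**Figure D3:**
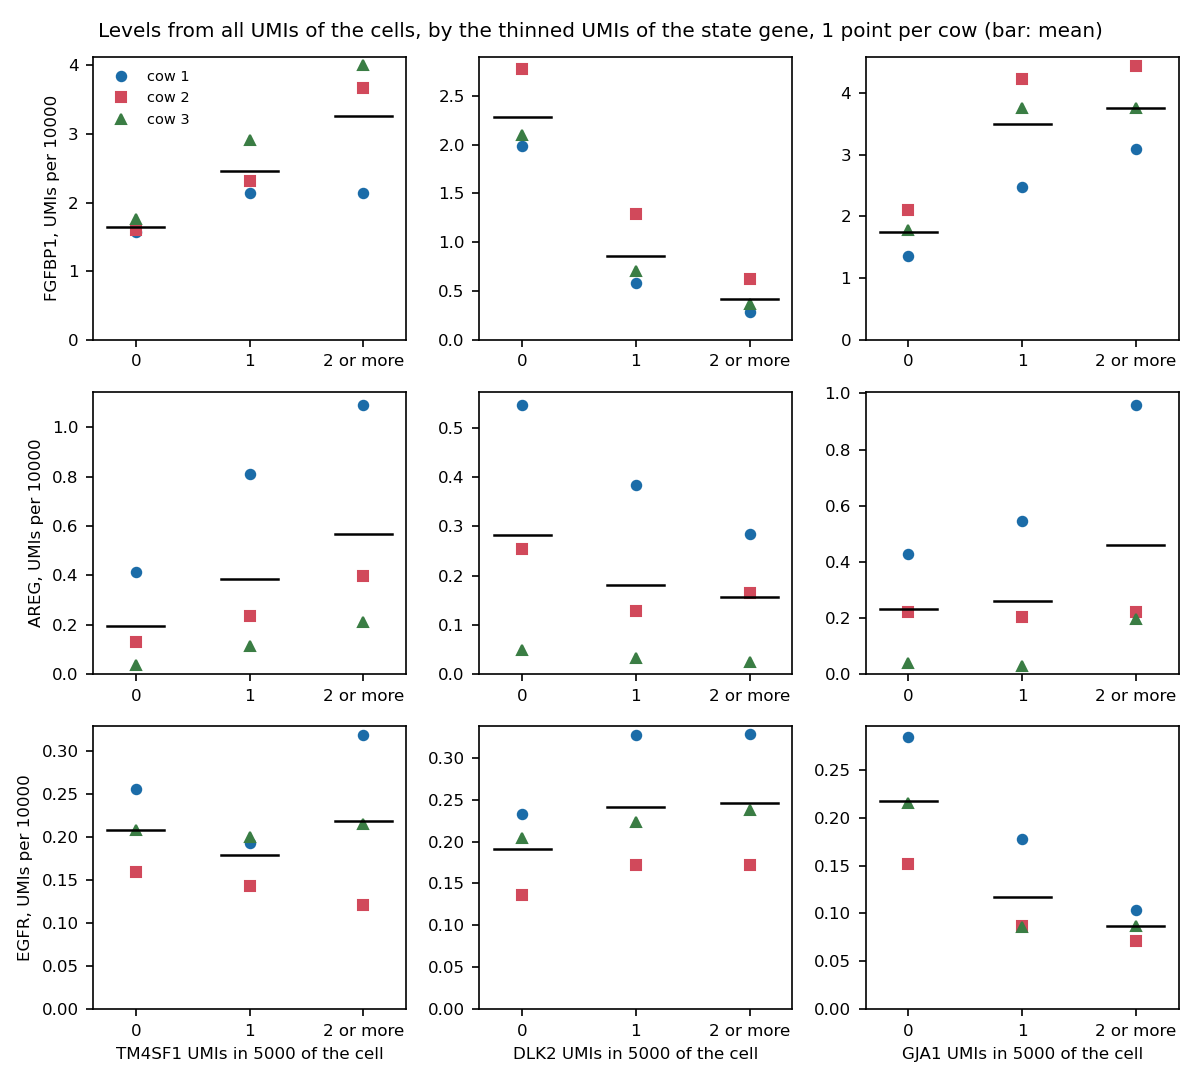
UMIs per 10000 of FGFBP1, AREG and EGFR (rows, linear axes from 0), from the full counts of cells that were classed by 0, 1 or 2 or more UMIs of TM4SF1, DLK2 or GJA1 (columns) after thinning to 5000 UMIs, with 1 point per cow and a bar at the mean. FGFBP1 goes down along DLK2 and AREG goes up along TM4SF1 in each cow, and EGFR is lower in both classes of cells with GJA1 than in cells without it.

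Cells that carried several state genes were looked at separately. In 2426 cells with both TM4SF1 and DLK2 and no GJA1, AREG was at 0.559, 0.240 and 0.111 UMIs per 10000, nearer to the TM4SF1 state, while FGFBP1 at 0.861, 1.68 and 1.22 lay between the TM4SF1 and DLK2 states in each cow. HBEGF was at 0.305, 0.246 and 0.0405 in them and ERRFI1 at 0.776, 1.21 and 0.148. In 840 cells with both GJA1 and TM4SF1 and no DLK2, FGFBP1 was at 3.39, 5.09 and 5.36 and EGFR at 0.108, 0.0575 and 0.101, whereas in 821 cells with GJA1 alone they were at 2.67, 3.33 and 3.37 and at 0.151, 0.119 and 0.0880. AREG was at 0.992, 0.290 and 0.181 in the double-positive cells and at 0.571, 0.0969 and 0.0505 with GJA1 alone, higher in the former in 3 of 3 cows. These levels are descriptions and were not tested.

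The comparisons were repeated in the cells at or below the median immediate-early share of their cow and in the cells above it. Over all cells, AREG was at 0.373, 0.122 and 0.0130 UMIs per 10000 in the lower group and at 0.690, 0.342 and 0.0835 in the upper one. HBEGF was at 0.0579, 0.124 and 0.0152 against 0.265, 0.306 and 0.0339, and ERRFI1 at 0.128, 0.514 and 0.0248 against 0.849, 1.51 and 0.141. Each was higher in the upper group in 3 of 3 cows, and EGFR less so, with 0.207, 0.130 and 0.186 against 0.349, 0.167 and 0.236.

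The gap in AREG between states was present in both groups of cells. Between the TM4SF1 and DLK2 states its log2 fold change was 1.99 in the lower group (adjusted p = 6.70e-09) and 1.59 in the upper one (adjusted p = 1.80e-07), and between the GJA1 and DLK2 states it was 2.20 and 2.22 (adjusted p = 4.48e-11 and 3.65e-10). FGFBP1 ranged from 2.26 to 3.06 in these 4 tests. EGFR between the GJA1 and DLK2 states was at -1.32 and -1.09, both called. The values of ERRFI1, HBEGF and AREG changed sign in some of these tests. Between the GJA1 and DLK2 states ERRFI1 was higher by 0.42 in the lower group (adjusted p = 0.0430) and at -0.15 in the upper one (adjusted p = 0.349), where all cells together had given -0.51. Between the GJA1 and TM4SF1 states it was at -0.22 in the lower group, where the call was lost (adjusted p = 0.428), and at -0.45 in the upper one (adjusted p = 0.0103), against -0.97 in all cells. Between the GJA1 and DLK2 states HBEGF, at -0.19 in all cells and not called, was at 0.30 in the lower group (adjusted p = 0.251) and at 0.33 in the upper one (adjusted p = 0.153) and was not called there. The 2 groups held unequal parts of the states. The GJA1 state had 459, 392 and 403 cells in the lower group and 106, 89 and 212 in the upper one. In the DLK2 state these were 359, 942 and 1101 against 629, 784 and 1155. The part of this mix in the values of all cells was not tested. Between the GJA1 and TM4SF1 states, AREG was higher by 0.63 in the upper group (adjusted p = 0.00941) and at 0.21 in the lower one (adjusted p = 0.397), against -0.04 in all cells, and HBEGF was called in neither, with -0.20 in the lower and -0.24 in the upper group (adjusted p = 0.548 and 0.384). ERBB3 was at 0.47 in the lower group and was not called (adjusted p = 0.0910). Between the TM4SF1 and DLK2 states, EGFR was at -0.60 in the lower group (adjusted p = 0.000196) and at -0.26 in the upper one, not called (adjusted p = 0.0998), and HBEGF was at 0.50 and not called in the lower group (adjusted p = 0.0541).

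**Figure D4:**
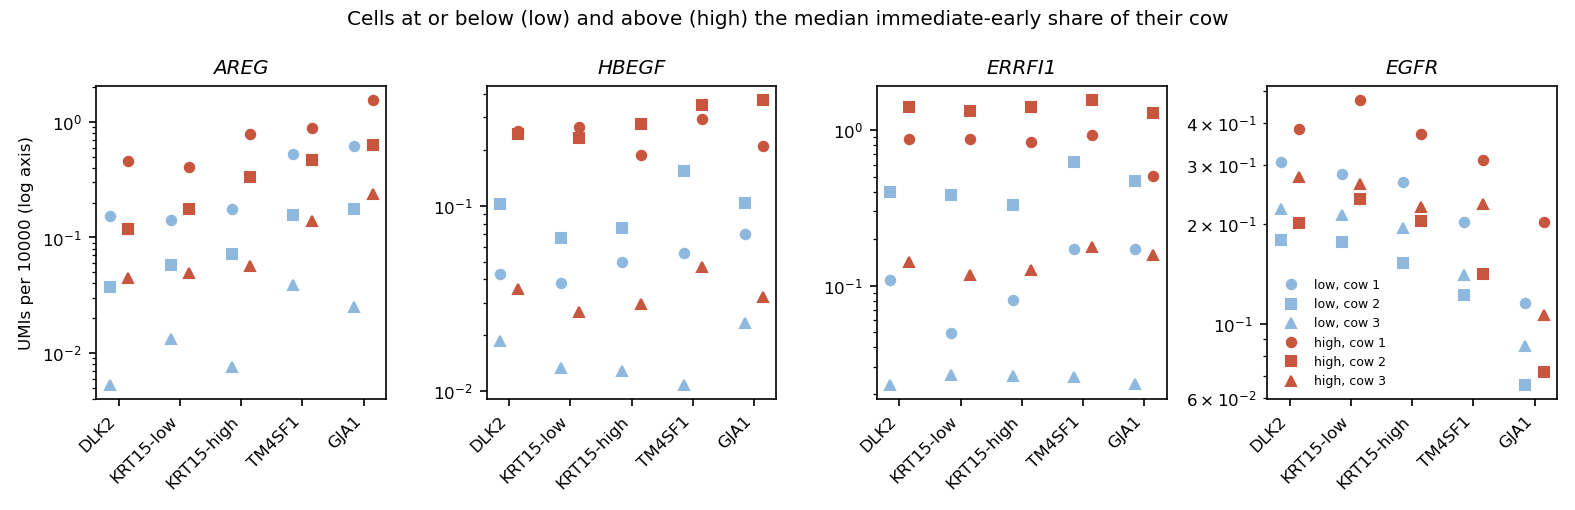
UMIs per 10000 (log axes) of AREG, HBEGF, ERRFI1 and EGFR by state, with blue points for cells at or below the median immediate-early share of their cow and red points for cells above it, and the shape giving the cow. AREG is higher in the TM4SF1 and GJA1 states than in the DLK2 state in both colours, ERRFI1 is higher in red than in blue in every state and cow, and the axis of EGFR spans a narrower range.

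Sender cells were defined as cells with at least 1 UMI of a ligand member and receiver cells as cells with at least 1 UMI of a receptor member, after each cell had been thinned to 5000 UMIs and the states set again on the thinned counts, which left out 586, 228 and 704 cells of cows 1, 2 and 3. Sender cells made up 17.4%, 14.6% and 3.00% of cells, with exact 95% binomial intervals of 16.0 to 18.9%, 13.8 to 15.4% and 2.67 to 3.37% that cover counting error only. With the mixed cells left aside, they were most frequent in the TM4SF1 state, at 28.3%, 20.5% and 5.65%. The GJA1 state followed, at 22.2%, 12.5% and 4.57%, against 15.5%, 10.4% and 2.51% in the DLK2 state. This order held in 3 of 3 cows, but 3 paired cows cannot give a two-sided exact p below 0.25. Cow 3 had fewer senders in its TM4SF1 state than cows 1 and 2 had in any state. In the full counts of the mixed cells, the ligand members together stood at 0.743, 0.496 and 0.130 UMIs per 10000. In the GJA1 state they stood at 0.880, 0.427 and 0.1285.

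Receiver cells were counted in the same way. They made up 42.4%, 24.7% and 26.7% of cells, and in the DLK2, TM4SF1 and GJA1 states the means were 32.4%, 32.4% and 29.1%, a smaller range than the spread between cows (SD of 8.73 to 10.8 percentage points). That spread includes the level of each animal, so it does not measure how the states differed within a cow. Most receivers were counted through ERBB2, which had a UMI in 32.3%, 16.9% and 15.3% of cells, while EGFR had one in 12.9%, 7.28% and 10.4%. The receiver share therefore does not tell the receptors apart. Between the GJA1 and DLK2 states EGFR was lower and ERBB3 higher, with log2 fold changes of -1.29 and 1.22. Without thinning the shares were 24.5%, 27.3% and 5.28% for senders and 67.5%, 49.4% and 45.6% for receivers of all cells at their own depth. The table holds no cell type known to lack these genes, and the level that free RNA gives in droplets was not measured.

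Ligand and receptor transcripts were found together in a share of cells close to the product of their separate shares. Cells with both made up 7.29%, 3.35% and 0.735% of cells, where the product of the shares in each cow was 7.38%, 3.60% and 0.801%. AREG and EGFR met in 68 thinned cells, or 1.04%, 0.362% and 0.140% of cells against products of 1.48%, 0.461% and 0.172%, below the product in 3 of 3 cows. AREG and HBEGF met in 103 cells, or 1.26%, 0.906% and 0.0324% against 0.795%, 0.561% and 0.0207%, above it in 3 of 3 cows, with only 3 such cells in cow 3. The products were taken over all states of a cow together, and AREG was high in the states where EGFR was low. Nothing is read from them about cells within a state. Counted in UMIs of the members, there were 0.899, 1.09 and 0.230 ligand UMIs for each receptor UMI in the TM4SF1 state. In the DLK2 state there were 0.398, 0.373 and 0.0811. The capture of different genes is not equal, so these ratios were compared only between states.

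**Figure D5:**
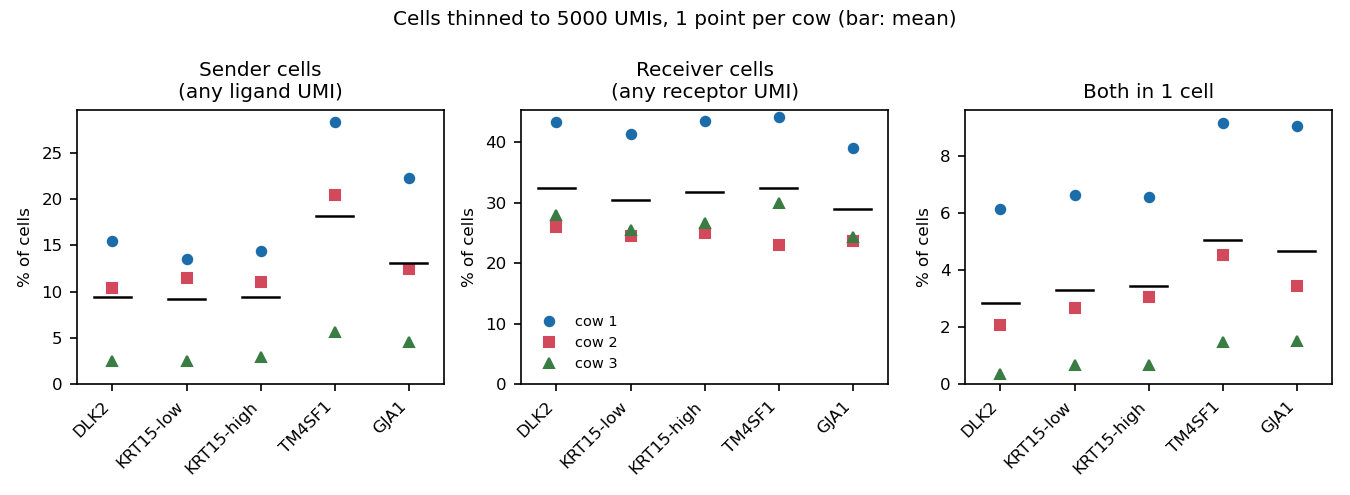
Percent of cells thinned to 5000 UMIs that were senders, receivers or both (3 panels, linear axes from 0) in 5 states, with 1 point per cow and a bar at the mean. Senders are most frequent in the TM4SF1 state in each cow, with 28.3%, 20.5% and 5.65%, while the receiver means lie between 29.1% and 32.4%.

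The pool of the 4 ligand members was also counted by state, without a test. Like the sender cells, it leaves out NRG1, NRG2 and BTC, ligands of the same receptor family that are not members. These had 5966, 2091 and 1305 UMIs in all cells, against 4552 for AREG. AREG gave 76.8%, 50.65% and 63.1% of the UMIs of the ligand members over all cells. In the GJA1 state it gave 88.3%, 61.2% and 78.6%, and in the DLK2 state 65.7%, 30.2% and 45.1%, where HBEGF took 32.8%, 68.3% and 50.4%. Of the ligand members with enough UMIs, AREG was the more concentrated in few cells. Only 1636 of 20728 cells had an AREG UMI in the full counts, 47.5% of them had just 1, and the 100 cells with the most AREG held 27.9% of all its UMIs, against 14.0% for HBEGF and 6.61% for EGFR. The highest cell had 33 AREG UMIs. Of 255 cells with 5 or more, 77 were among the 3364 cells of the TM4SF1 state and 63 among the 1661 of the GJA1 state. A further 63 were among the 2864 mixed cells and 25 among the 4970 cells of the DLK2 state. The states differed in depth, and these counts were not corrected for it. Of the 255 cells, 128, 114 and 13 came from cows 1, 2 and 3.

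The other genes of the pathway were then counted by lists of known function, beginning with the other ligands. The counts in these short lists are descriptions and stand against 25.3% of all genes tested higher and 25% lower between the GJA1 and DLK2 states, and 15% higher and 11.9% lower between the TM4SF1 and DLK2 states. NRG1, NRG2 and BTC (betacellulin) were tested of 7 listed, and EPGN (epigen), NRG3 and NRG4 had 4, 8 and 4 UMIs. Against the DLK2 state, all 3 were lower in the GJA1 state, with log2 fold changes of -1.49 for NRG1 (adjusted p = 3.89e-11), -1.40 for NRG2 (adjusted p = 4.98e-08) and -0.82 for BTC (adjusted p = 0.000248), a median of -1.40 against -0.02 over all genes tested. In the TM4SF1 state, NRG1 at -0.55 and NRG2 at -0.37 were lower and BTC at 0.03 was not called. The neuregulins, ligands of ERBB3, were thus lower in the GJA1 state, where ERBB3 itself was highest. In the order of genes in the RefSeq annotation of the ARS-UCD2.0 assembly, EPGN, EREG, AREG and BTC lie side by side on chromosome 6, and AREG and BTC differed from the DLK2 state in opposite directions in the GJA1 state.

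Of the 5 genes of ligand release, 3 were higher in the GJA1 state than in the DLK2 state: the rhomboid protease gene RHBDL2 by 1.97 (adjusted p = 4.37e-06), RHBDF2 by 0.90 (adjusted p = 0.00539) and the sheddase gene ADAM17 by 0.64 (adjusted p = 0.00862) on the log2 scale. ADAM10 at -0.30 and RHBDF1 at -0.76 were lower. With 25.3% of all genes higher and 25% lower in this comparison, and 1 call left without the cow block, the split of these 5 genes is a description. In the TM4SF1 state RHBDL2 was higher by 1.11 (adjusted p = 0.00619), ADAM10 and RHBDF1 were lower, and ADAM17 and RHBDF2 did not pass.

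The feedback regulators and targets of ERK were counted next. Of 11 tested, 8 were lower and 0 higher in the GJA1 state than in the DLK2 state, where 25% of all genes were lower and 50.3% were called in either direction, with a median log2 fold change of -1.31 against -0.02 over all genes tested. They were led by ETV5, an ETS factor downstream of fibroblast growth factor (FGF) signalling, at -3.63 (adjusted p = 6.78e-14), the phosphatase gene DUSP4 at -2.53, and the Sprouty and Spred inhibitors SPRY1 at -2.30, SPRY2 at -1.89 and SPRED1 at -1.81. In the TM4SF1 state 3 were lower (ETV5 at -1.38, SPRY1 at -0.92 and SPRED1 at -0.70) and 1 was higher, the AP-1 gene FOSL1 at 1.30 (adjusted p = 0.000328), 4 calls among 11 genes where 26.9% of all genes were called, and nothing is read from that count. Against the TM4SF1 state, 9 of 11 were lower in the GJA1 state and 0 were higher, where 14.1% of all genes were lower. Between KRT15-high and KRT15-low cells only SPRY1 was called, at -0.77. Without the cow block the counts lower were 5, 0, 4 and 0 in these 4 comparisons, in the order given, and none was higher.

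The FGF receptors, whose ligands FGFBP1 releases, made up a further list. Between the GJA1 and DLK2 states FGFR2 had a log2 fold change of -2.07 (adjusted p = 1.38e-15) and FGFR3 one of -0.53, and the ligand FGF18 stood at -2.43, so the 3 genes tested of 10 listed were lower, where 25% of all genes were lower and 50.3% were called. FGF18 had 153 UMIs in all cells. It did not pass the filter on low counts without cow 2, without cow 3 or in either immediate-early group, and it was not called without the cow block (adjusted p = 0.0710). In the TM4SF1 state only FGFR2 was called, at -0.74, while FGF18 at -0.47 and FGFR3 at -0.24 were not. FGF18 was also called lower in KRT15-high than in KRT15-low cells, at -1.84 (adjusted p = 0.0278), but it was not called without cow 1 (-1.78, adjusted p = 0.141). FGF1 and FGF2 had 4 and 28 UMIs in all cells.

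In the relay from Ras to ERK, of 15 genes tested, 6 were higher in the GJA1 state than in the DLK2 state, led by HRAS at 0.75 and NRAS at 0.63, and 2 were lower, BRAF at -1.15 and the adaptor gene GAB1 at -0.91. The median was 0.17. These 8 calls among 15 genes are close to the background of 50.3%. In the TM4SF1 state HRAS and NRAS were higher, GAB1 was lower and 12 were not called. Among 7 tested inhibitors of the receptors, 2 were higher in the GJA1 state (SOCS4 at 0.66 and PTPN1 at 0.33) and 3 were lower (LRIG3 at -1.91, the ubiquitin ligase gene CBLB at -1.06 and SOCS5 at -0.45), which with so few genes is read against the same background and as a description. LRIG3 and CBLB were lower and SOCS4 higher in the TM4SF1 state. Between KRT15-high and KRT15-low cells, none of the genes tested in the lists of other ligands, ligand release, Ras to ERK and receptor inhibitors was called by edgeR. Without the cow block, the calls left between the GJA1 and DLK2 states were 2 lower of the other ligands, 1 lower of the FGF genes, 1 lower of ligand release, 1 higher and 1 lower of the relay and 2 lower of the inhibitors, and in the other comparisons none was left in these lists.

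For each member with at least 500 UMIs, the genes with the most similar pattern were named by the correlation of log2-scaled counts over the 15 sums of 3 cows and 5 states, with the mean of each cow removed. These sums share libraries and depth, and the values describe likeness among 8722 genes. EGFR was most like KRT7 (a simple epithelial keratin, Pearson's r of 0.991), FGFR2 (0.990) and SMO (0.989). FGFBP1 was most like the ATP synthase subunits ATP5PF (0.985) and ATP5MC3 (0.978) and BST1 (0.978), which lies close to FGFBP1 on chromosome 6 with CD38 between them. ERRFI1 was most like KLF6 (0.964), KLF4 (0.937) and ATF3 (0.936), all in the immediate-early list, and HBEGF was most like HSPA5 (0.938), ERRFI1 (0.903) and TRIB1 (0.883). AREG was nearest to TM4SF1 itself (0.939), which set the states, then NDUFB5 (0.928) and TCIM (0.926). For ERBB3 the nearest were PPIL3 (0.959), ABHD17C (0.956) and NECTIN1 (0.951), and for ERBB2 FIS1 (0.916), RXRA (0.898) and MRPL53 (0.889).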

How the data were processed

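Per the labels and the methods of the study, libraries were made from rumen tissue with the 10x Chromium 3' kit and processed by the authors with Cell Ranger 3.1.0, followed by filters on genes, UMIs and mitochondrial share, removal of doublets and of other cell types. The authors deposited a UMI count matrix of 20728 cells, which was used here, and natural log-normalized values, which served only to name the 19533 genes (all matched within 1e-06). Counts were summed per cow and state over 18 sums and tested in edgeR 4.0.16 (R 4.3.3) with TMM, filterByExpr, the quasi-likelihood test, Benjamini-Hochberg adjustment and the cow as a block. The 4 state genes were left out of the counts of calls. Sums of 1 cow are paired by the animal: after state means were removed, sums of the same cow correlated at 0.683 to 0.903 and sums of different cows at -0.624 to -0.209. Removing the state means of 3 cows by itself pushes the values between different cows below those within a cow, so their sign is not read. With 3 cows, each from 1 library, precision rests on animals. With the cow as a block the level of each cow is taken out. The p-values then measure how the differences between states vary among these 3 cows, with the spread estimated from all 6 states in 1 fit. Levels are UMIs per 10000. On simulated sums for the TM4SF1 and DLK2 comparison of 10739 genes, changes of 1 and 0.5 (log2) were recovered in 92% and 66%, changes of -1 and -0.5 in 86% and 50%, and 0.0474% of unchanged genes were called. The simulated counts were independent, with 1 common spread for every gene and equal levels over the states apart from 200 changed genes. The real sums differ from this, so these shares hold for the simulated setting only. Alternatives were DESeq2 1.42.0, RLE size factors, no filter, each cow left out, no block, other cell sets and a log2 fold limit of 0.36. The members, lists and states were chosen with earlier results of these data known. Named pathway genes were those called with the largest changes, up to 5 in each direction and comparison, and others were named to account for a list. A comparison of member sequences had been planned and was not run, since no sequences were at hand. Python 3.11.15 with numpy 2.4.6 and pandas 2.3.3 was used for sums.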

Additional observations from a re-analysis of the deposited data

How the results depend on the processing

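Of 412 values of members under alternatives, 361 stayed on their side of the threshold with no called change of direction, 37 lost a call, 12 gained one and 2 reversed, and the cause was not tested. Among the 361, 19 that were not called changed sign. The reversed values were ERRFI1 between the GJA1 and DLK2 states in cells at or below the median immediate-early share, at 0.42 (log2), and AREG between the GJA1 and TM4SF1 states in cells above it, at 0.63. RLE size factors changed no call of a member, and DESeq2 lost 1, ERBB3 between the TM4SF1 and DLK2 states (adjusted p = 0.0539).

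Without the cow as a block, the pairing of sums by animal was given up and 13 calls of members were lost. FGFBP1 (against the DLK2 state in both comparisons), ERBB3 (both comparisons of the GJA1 state) and EGFR (GJA1 against DLK2) kept theirs. The counts of genes higher and lower were then 54 and 24 for TM4SF1 against DLK2 (1629 and 1296 with the block), 1011 and 909 for GJA1 against DLK2 (2753 and 2721), and 194 and 161 for GJA1 against TM4SF1 (1655 and 1531). For KRT15-high against KRT15-low they were 0 and 0 in edgeR (512 and 495 with the block), with 316 genes at an unadjusted p under 0.05, while DESeq2 with the block called 376 and 351.

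With cells thinned to 5000 UMIs the counts were 955 and 645 for TM4SF1 against DLK2 and 1097 and 969 for GJA1 against TM4SF1, where fewer cells and UMIs entered. In cells above the median immediate-early share they were 733 lower for TM4SF1 against DLK2, 1742 lower for GJA1 against DLK2, 1059 and 820 for GJA1 against TM4SF1, and 203 and 133 for KRT15. In cells at or below it they were 854 and 805 for GJA1 against TM4SF1 and 240 higher for KRT15. With the GJA1 state free of TM4SF1 UMIs, GJA1 against TM4SF1 gave 1047 and 951. A log2 fold limit of 0.36 left 265 higher for KRT15. With each cow left out in turn, genes lower ranged from 822 (without cow 2) to 1062 for TM4SF1 against DLK2, and for KRT15 from 279 to 326 higher and 177 (without cow 3) to 407 lower. Without thinning, receivers made up 54.2% and cells with both 11.4% of cells (means of 3 cows, 31.3% and 3.79% when thinned). EREG and TGFA had 121 and 32 UMIs in all cells, and the part of depth in these low counts was not tested.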
